A study of Homo sapiens with 18 samples.

Results

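Kruppel-like factors (KLFs) are transcription factors that bind GC-rich and CACCC-type DNA through zinc fingers at the carboxyl end of the protein, and they switch genes on or off according to the cofactors that they recruit. Several of them are early response genes, whose short-lived messengers rise and fall soon after a cell is stimulated. In epithelial cells they are known for roles in proliferation, differentiation and the response to injury. The 10 members described here, KLF2, KLF4, KLF5, KLF6, KLF7, KLF9, KLF10, KLF11, KLF13 and KLF15, were taken by gene name among the 30484 gene names on the array. They were measured by 18 of the 41000 non-control probes. Of these, 17 probes passed the filter on missing spots, and every member kept at least 1 probe.

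The cells were A549, a human lung adenocarcinoma line of epithelial type, and the particles were Ludox colloidal silica of 2 sizes, SM30 (9 nm in diameter) and AS30 (18 nm). Cells were exposed for 2 h in serum-free medium, at 0.02 mg/mL, and then recovered in complete medium for 3 h (SM30, AS30) or 22 h (AS30 only), and each of these 3 conditions had its own control cultures without particles. The 18 one-colour arrays held 3 replicates, A, B and C, of each of the 6 groups. All groups passed through the serum-free step and the return to serum, and the whole dish was sampled, so fewer cells of a type and less RNA per cell cannot be told apart.

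The arrays showed 51.9% to 72.4% of spots well above background. Replicate C of the AS30 controls at 3 h stood apart from the other arrays of its group, with 52.4% against 61.7% and 61.9%. At 22 h, treated replicate B had 56.9% against 64.5% and 67.0%, and control replicate C 58.4% against 52.4% and 51.9%. All 5 epithelial markers (CDH1, EPCAM, KRT8, KRT18 and KRT19) were well above background on every array. Of the 5 leukocyte markers, CD14, CD3E and CD68 were so on every array, LYZ on 6 and PTPRC, the pan-leukocyte antigen, on 5. The arrays lay on 5 slides. Treated and control arrays of AS30 at 3 h shared no slide, so that slide and treatment cannot be told apart there except through arrays of other groups. SM30 replicates B and C lay on a slide without any control array, so slide and treatment cannot be told apart for them either. SM30 replicate A shared a slide with all the SM30 controls. At 22 h the AS30 arrays shared their slide with control replicate C only.

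Values below are log2 normalized signals, and a level on this scale is compared only within 1 probe. For a gene with several probes, the brightest probe stands for the gene and the others are given beside it. A change is the mean of the 3 log2 ratios of a treated array over the control array of the same letter. It was tested with limma over all kept probes, and it was called at a Benjamini-Hochberg adjusted p under 0.05.

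After SM30 at 3 h, 8 of the 10 members were higher than in the controls by this test, and none was lower. Over all probes, 4.35% were called higher and 3.13% lower in the same comparison (7.49% in either direction). The median log2 change of the 10 members was 0.91, against -0.05 over all probes. At 3 h after AS30, 3 members were higher (KLF6, KLF9 and KLF2) and none was lower, with 1.5% of all probes called higher and 1.01% lower (2.52% in either direction). After AS30 at 22 h no member was called in either direction by its brightest probe, where 2.54% of all probes were called higher and 1.04% lower (3.58% in either direction). In that comparison 2 of the 10 had an unadjusted p under 0.05.

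**Figure D1:**
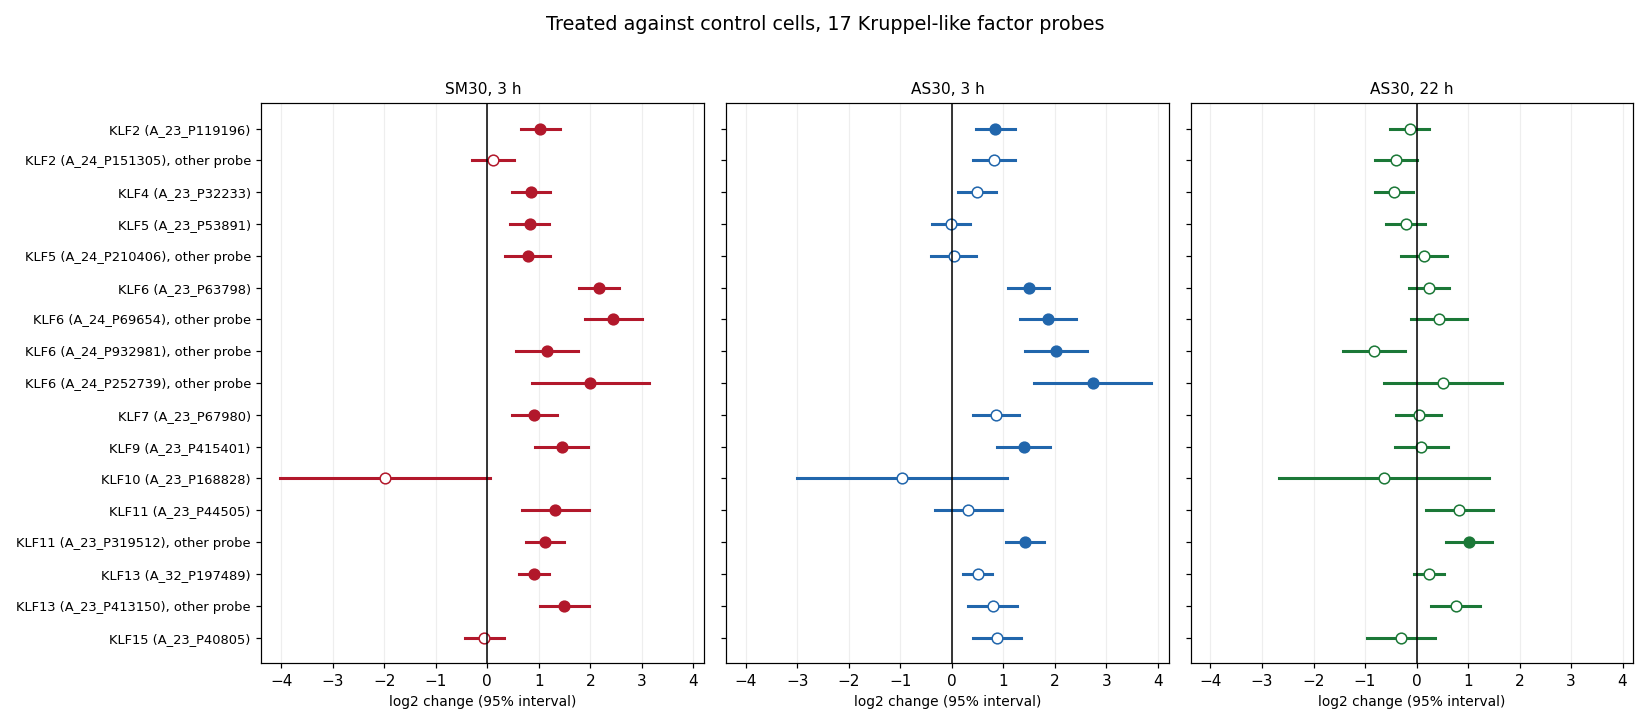
Log2 change of each kept KLF probe (rows) in treated against control cells, with the 95% interval of the limma fit; filled circles are changes with an adjusted p under 0.05. In SM30 at 3 h, 14 of the 17 probes are filled and lie to the right of 0, in AS30 at 3 h 7 are, and in AS30 at 22 h 1 is.

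The SM30 count did not hold when any of the 3 pairs was left out. It fell to 1 member without pair A, 1 without pair B and 2 without pair C, and to 1 with the slide as a fixed block. The share of all probes called fell under those settings too, from 7.49% in either direction to 1.98%, 1.01%, 1.04% and 1.17%. The direction of all 8 called members was the same under each of them. The AS30 count at 3 h was 1 without pair A or pair B, 5 without pair C, whose control array stood apart, and 0 with the slide as a fixed block. The share of all probes called moved with it, from 2.52% to 0.716%, 0.285%, 10.7% and 0.785%.

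KLF6 is a widely expressed member known as an early response gene and as a growth suppressor. On its brightest probe the control arrays for SM30 read 12.90, 12.87 and 12.95, and the SM30 arrays 15.09, 15.02 and 15.11. The groups lay far apart, with hardly any spread within either. The log2 change was 2.17 (SE 0.17, adjusted p = 0.00095), a 4.50-fold increase.

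After AS30 the same probe read 13.08, 12.80 and 13.26 in the 3 h controls and 14.44, 14.78 and 14.38 in the treated cells. All treated arrays again lay above all controls, and the log2 change was 1.49 (SE 0.17, adjusted p = 0.0091), or 2.81-fold. At 22 h the controls read 13.24, 12.73 and 13.59 and the treated arrays 13.75, 12.70 and 13.85. These groups overlapped, and the log2 change of 0.25 did not pass the test (adjusted p = 0.43).

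The KLF6 call at 3 h is the one that persisted when arrays were left out. With each of the 9 pairs left out in turn, the SM30 change lay between 2.16 and 2.18 and the AS30 change between 1.24 and 1.67, and both were called each time. With the slide as a fixed block the SM30 change was 2.19 (adjusted p = 0.018), whereas the AS30 change of 2.00 missed the threshold (adjusted p = 0.14).

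KLF6 had 3 further probes. Their log2 changes after SM30 were 2.45, 1.16 and 2.00, and after AS30 at 3 h 1.87, 2.02 and 2.73, all called. At 22 h they went different ways, with 0.43, -0.82 and 0.51, and none was called. The values of -0.82 (A_24_P932981) and 0.51 (A_24_P252739) rest on weak spots, since on each probe 2 of the 3 treated arrays and 1 of the 3 controls at 22 h were well above background. In hg18 positions the probes lie on chromosome 10, the representative one at 3811387 to 3811446, A_24_P932981 at 3808811 to 3808870 and A_24_P252739 at 3808418 to 3808477.

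KLF9 is a factor known as a direct target of glucocorticoid and thyroid hormone receptors. Its single probe read 7.84, 7.85 and 7.99 in the SM30 controls and 9.39, 9.30 and 9.32 after SM30. All treated arrays exceeded all controls by more than the spread within a group, and the log2 change was 1.44 (SE 0.22, adjusted p = 0.0095), or 2.72-fold.

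In the AS30 controls at 3 h KLF9 read 7.59, 8.19 and 6.85, and after AS30 9.16, 9.07 and 8.57. The groups did not overlap although the controls spread widely, with the lowest value on replicate C. The log2 change was 1.39 (SE 0.22, adjusted p = 0.025). At 22 h the controls read 8.05, 8.30 and 8.12 and the treated arrays 8.53, 7.74 and 8.48, and the change of 0.09 did not pass the test (adjusted p = 0.85).

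KLF2 is the member first named for lung, and it is known for its induction by fluid shear stress in endothelium. Its brighter probe read 11.83, 12.06 and 12.12 in the SM30 controls and 12.96, 13.16 and 13.00 after SM30, with a log2 change of 1.03 (SE 0.17, adjusted p = 0.011). In the AS30 controls at 3 h it read 12.24, 12.38 and 12.52 and after AS30 13.11, 13.38 and 13.18, with a change of 0.84 (SE 0.17, adjusted p = 0.044). In both comparisons every treated array lay above every control.

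The second KLF2 probe, A_24_P151305, did not follow the first after SM30. It read 5.49, 5.62 and 5.66 in those controls and 5.63, 5.79 and 5.67 after SM30, and its change of 0.11 did not pass the test (adjusted p = 0.75). Its change after AS30 at 3 h was 0.82, close to that of the brighter probe, with an adjusted p of 0.054. At 22 h the brighter probe changed by -0.14 and the second by -0.40, neither of them called.

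**Figure D2:**
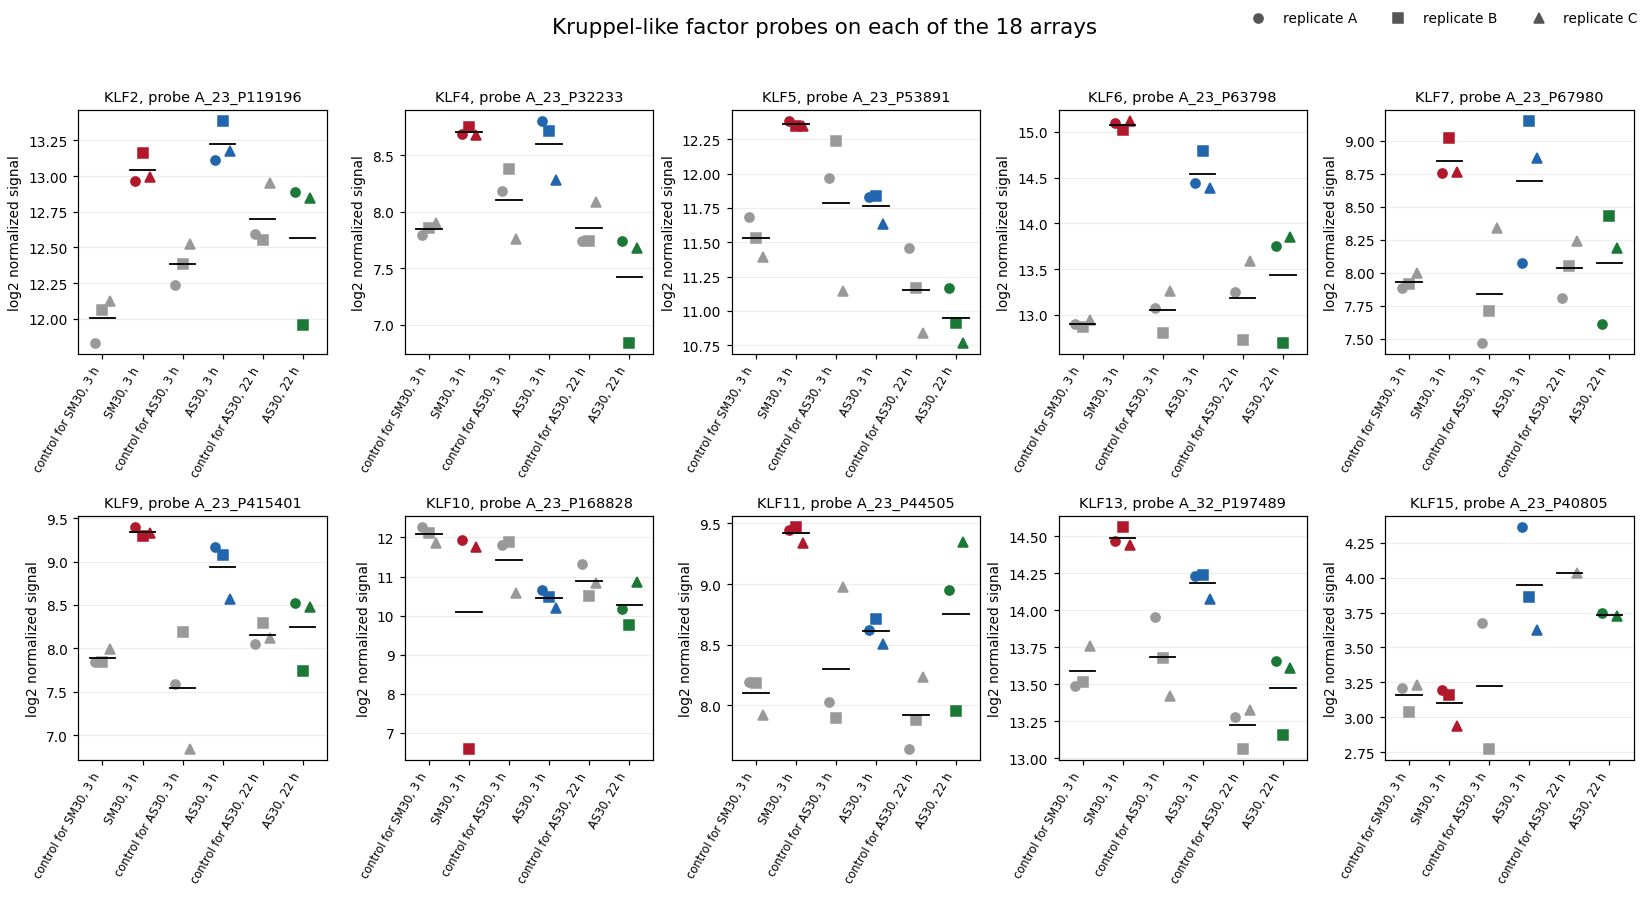
Log2 normalized signal (vertical axes, 1 scale per gene) of the brightest probe of each member on the 18 arrays, by group; circles, squares and triangles are replicates A, B and C, and bars are group means. The KLF6 arrays after SM30 sit between 15.02 and 15.11, above all others, and 1 KLF10 array after SM30 sits at 6.59, far below every other.

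KLF6, KLF9 and KLF2, the members called after both particles at 3 h, have a single listed start each, and the 250 bases before it are shown so that their composition can be compared. They are RefSeq sequences of GRCh38.p14, printed 5′ to 3′ on the gene's strand. KLF6 lies at chr10:3785210-3785459 (minus strand), KLF9 at chr9:70414658-70414907 (minus strand) and KLF2 at chr19:16324576-16324825 (plus strand). Capitals mark every match on either strand to 8 motifs: the GC box GGGCGG and the CACCC box CCACCC, both of which KLFs bind, the cAMP response element TGACGTCA and its core TGACG (found inside it), the AP-1 site TGANTCA, the E-box CACGTG, the CCAAT box CCAAT and the TATA box TATAAA.
KLF6: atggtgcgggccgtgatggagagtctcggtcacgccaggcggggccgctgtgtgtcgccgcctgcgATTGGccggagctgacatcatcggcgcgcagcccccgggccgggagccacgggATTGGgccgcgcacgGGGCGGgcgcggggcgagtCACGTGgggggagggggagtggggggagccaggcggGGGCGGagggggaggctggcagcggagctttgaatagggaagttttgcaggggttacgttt
KLF9: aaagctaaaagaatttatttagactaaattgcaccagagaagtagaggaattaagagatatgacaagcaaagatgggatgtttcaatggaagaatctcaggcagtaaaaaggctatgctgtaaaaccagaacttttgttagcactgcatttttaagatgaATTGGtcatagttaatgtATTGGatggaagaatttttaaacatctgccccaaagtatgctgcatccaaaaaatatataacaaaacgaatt
KLF2: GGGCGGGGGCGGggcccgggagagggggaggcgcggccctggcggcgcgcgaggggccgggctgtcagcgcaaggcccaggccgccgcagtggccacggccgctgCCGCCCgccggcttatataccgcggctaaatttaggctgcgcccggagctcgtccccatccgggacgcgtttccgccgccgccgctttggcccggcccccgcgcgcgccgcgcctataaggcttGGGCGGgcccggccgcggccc
The windows differed in make-up, with 72.4% G and C bases for KLF6, 80.0% for KLF2 and 32.4% for KLF9. GC boxes stood in the KLF6 window (2) and the KLF2 window (4), and CCAAT boxes in the KLF6 and KLF9 windows (2 each). Over all 35116 listed windows of this length, 42.6% held a GC box, 32% a CCAAT box and 6.34% an E-box, of which KLF6 held 1. Among the 14 windows listed for 9 of the members, 9 held a GC box, 7 a CCAAT box and 2 a CACCC box (31.3% of all windows). Of the same 14, 5 held an E-box and 5 the TGACG core (21.2%). The full cAMP response element stood in 1 (1.65%), a TATA box in 1 (10.7%) and an AP-1 site in none (6.57%). A match is a description of letters in these windows.

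The members called after SM30 at 3 h without a call on the same probe after AS30 were KLF11, KLF13, KLF7, KLF4 and KLF5. KLF11, which represses transcription through the Sin3A corepressor, read 8.19, 8.19 and 7.92 on its brighter probe in the SM30 controls and 9.45, 9.47 and 9.34 after SM30. The log2 change was 1.32 (SE 0.28, adjusted p = 0.030). This probe changed by 0.32 after AS30 at 3 h (adjusted p = 0.52), with controls at 8.03, 7.89 and 8.97 and treated arrays at 8.62, 8.72 and 8.51. The groups overlapped through control replicate C.

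The dimmer KLF11 probe, A_23_P319512, was called in all 3 treated comparisons, with log2 changes of 1.12 after SM30 (adjusted p = 0.0086), 1.42 after AS30 at 3 h (adjusted p = 0.011) and 1.03 after AS30 at 22 h (adjusted p = 0.039). It is the single member probe called at 22 h. No AS30 control array measured it well above background at either time. Taking for each control array the higher of its own signal and the lowest signal well above background left the 3 h change at 1.42. This step altered no control value, so it gave no bound. The 2.67-fold increase is the fitted change, taken over control spots that were not well above background. At 22 h 2 of the 3 treated arrays were well above background, and the fit lacks pair A, whose control spot was missing, so the change there rests on 2 ratios to control spots that were not well above background.

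KLF13, a factor known for inducing the chemokine gene CCL5 in lymphocytes, read 13.49, 13.52 and 13.76 on its brighter probe in the SM30 controls and 14.47, 14.56 and 14.44 after SM30. The groups did not overlap, and the log2 change was 0.90 (SE 0.13, adjusted p = 0.0070). After AS30 at 3 h the treated arrays (14.23, 14.24 and 14.08) also lay above all controls (13.96, 13.68 and 13.42), with a change of 0.50 that missed the threshold (adjusted p = 0.076). The other KLF13 probe changed by 1.50, 0.79 and 0.76 after SM30, AS30 at 3 h and AS30 at 22 h, and it was called after SM30 (adjusted p = 0.0069).

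KLF7, known from neuronal development and described as ubiquitous, read 7.88, 7.92 and 8.00 in the SM30 controls and 8.76, 9.02 and 8.76 after SM30, a log2 change of 0.91 (SE 0.19, adjusted p = 0.029). In the fit without the replicate block, which does not pair arrays by letter, KLF7 missed the threshold (adjusted p = 0.053). After AS30 at 3 h its change was 0.86, but treated array A (8.07) lay below control array C (8.34) and the adjusted p was 0.058.

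KLF4, a factor of epithelial differentiation and of reprogramming to pluripotency, read 7.79, 7.86 and 7.90 in the SM30 controls and 8.68, 8.75 and 8.68 after SM30. The log2 change was 0.85 (SE 0.16, adjusted p = 0.020). After AS30 it changed by 0.49 at 3 h (adjusted p = 0.12) and by -0.43 at 22 h (adjusted p = 0.16), and the groups overlapped at both times.

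KLF5, which promotes epithelial proliferation and is needed for maturation of the alveoli, read 11.68, 11.53 and 11.39 in the SM30 controls and 12.38, 12.35 and 12.35 after SM30. The log2 change was 0.82 (SE 0.16, adjusted p = 0.024), and its second probe changed by 0.78 (adjusted p = 0.046). After AS30 at 3 h the brighter probe read 11.83, 11.84 and 11.63, against 11.97, 12.24 and 11.15 in the controls. Its ratios were -0.14, -0.40 and 0.49, the last from pair C, whose control array stood apart. The mean changes of the brighter and the second probe were -0.02 and 0.03, with adjusted p of 0.96 and 0.93. Their 95% intervals ran from -0.40 to 0.36 and from -0.41 to 0.48.

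KLF10 and KLF15 were called in no comparison. KLF10, a gene known as an early target of TGF-beta, read 12.26, 12.12 and 11.85 in the SM30 controls and 11.93, 6.59 and 11.75 after SM30. The mean log2 change of -1.99 (SE 0.89, adjusted p = 0.21) came mostly from replicate B. That single spot was not marked as an outlier by the scanner software, and without pair B the change was -0.22. On that array 1.00% of spots were marked as outliers, against 0.36% and 0.30% on SM30 replicates A and C. SM30 control replicate C had 1.13%. After AS30 at 3 h KLF10 read 10.64, 10.48 and 10.20 against 11.80, 11.88 and 10.57 in the controls, a change of -0.97 that did not pass the test (adjusted p = 0.53).

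KLF15, a regulator of glucose and amino acid metabolism, was close to background. Its kept probe was well above background on 1 of the 18 arrays, and it read 2.78 to 4.36 where it was measured. Its second probe was positive on no array and was not tested. The kept probe changed by -0.06 after SM30 (adjusted p = 0.85) and by 0.88 after AS30 at 3 h (adjusted p = 0.077, from 2 ratios).

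**Figure D3:**
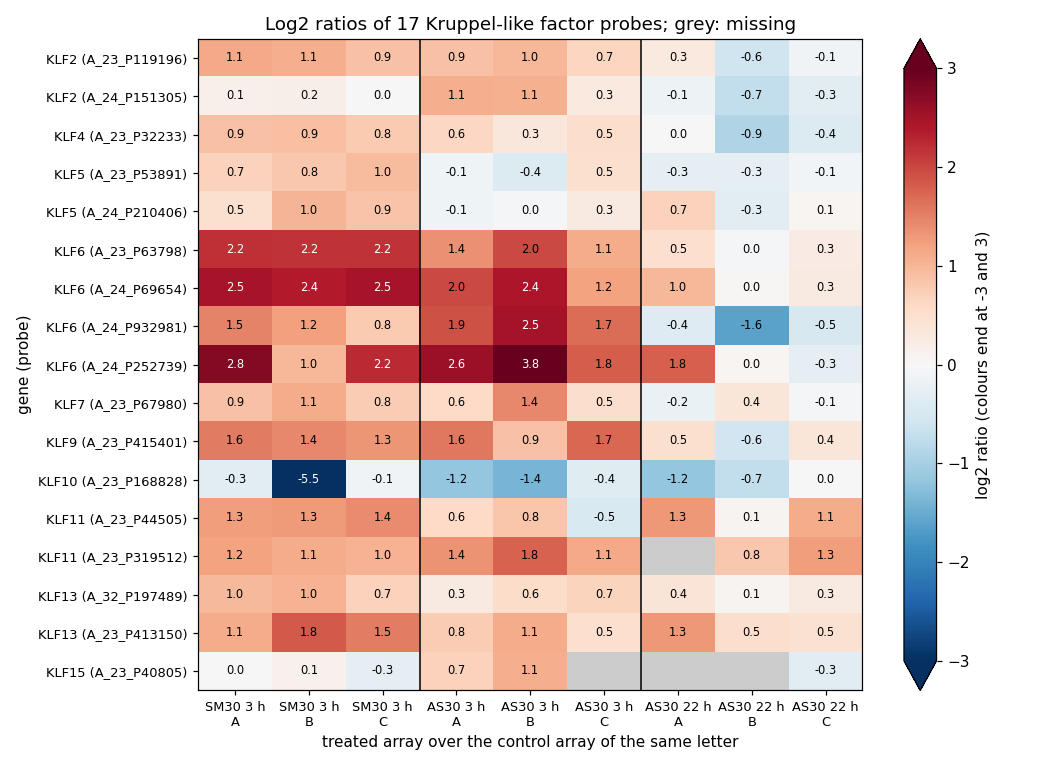
Log2 ratio of each treated array over the control array of the same letter (columns) for the 17 kept KLF probes (rows); red is higher and blue lower in treated cells, and grey marks a missing spot. The KLF6 rows are red in all 6 columns of the 3 h recoveries, and the strongest blue cell is KLF10 in SM30 replicate B at -5.53.

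By their brightest probes, 8 of the 10 members had all treated arrays above all 3 controls at 3 h after SM30. After AS30 at 3 h 4 had (KLF2, KLF6, KLF9 and KLF13). Over all probes this held for 19.4% and 13.6%. No member had all treated arrays below all controls at 3 h, where 23.9% of all probes did after SM30 and 12.4% after AS30. At 22 h no brightest probe lay above, against 13.6% of all probes. KLF15 lay below there, against 12.9% of all probes, with 2 treated arrays and 1 control array measured and none of them well above background. Of all 17 kept member probes, 14 lay above after SM30, 10 after AS30 at 3 h and 2 at 22 h. Those 2 were A_23_P319512 of KLF11 and A_23_P413150 of KLF13. At 22 h 3 of the 17 lay below, namely KLF15, A_24_P151305 of KLF2 and A_24_P932981 of KLF6.

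Whether the responses to the 2 particles differed was tested directly, as the SM30 change minus the AS30 change at 3 h. Each particle had its own controls, and the labels do not say whether the 2 were applied in the same experiment. No member passed in either direction, and 0.014% of all probes were called higher and 0% lower. With an unadjusted p under 0.05 there were 4 members. KLF5 had a difference of 0.84 (95% interval 0.31 to 1.38, adjusted p = 0.23), KLF11 of 1.00 (0.09 to 1.92, adjusted p = 0.31), and KLF6 of 0.68 (0.13 to 1.24, adjusted p = 0.28). The other one was KLF15, well above background on 1 array, for which no size is given.

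The KLF2 and KLF9 responses differed by 0.19 (95% interval -0.35 to 0.73) and 0.05 (-0.68 to 0.78). The intervals leave room for differences of over 0.7 on the log2 scale. Other probes of the same gene did not all share the sign. KLF6 had differences of 0.58, -0.86 and -0.73 on its other probes, and the second KLF2 probe had -0.71. The dimmer KLF11 probe rose less after SM30 (1.12) than after AS30 at 3 h (1.42), against the sign of the brighter one. No AS30 control array measured that dimmer probe well above background. For KLF5 the second probe, at 0.75, had the sign of the first.

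Whether the response to AS30 had changed by 22 h was tested as its change at 22 h minus that at 3 h, on cultures with separate controls. Like the comparison of particles, it uses the AS30 arrays at 3 h. No member passed, and 0.0142% of all probes were called higher and the same share lower. The fitted differences were below 0 for 8 of the 10 members, and 6 of them had an unadjusted p under 0.05. KLF6 had -1.24 (95% interval -1.80 to -0.69, adjusted p = 0.11), KLF9 -1.30 (-2.03 to -0.58, adjusted p = 0.14) and KLF2 -0.98 (-1.52 to -0.44, adjusted p = 0.14). KLF4 had -0.93 (adjusted p = 0.14) and KLF7 -0.81 (adjusted p = 0.22). KLF15 is counted among the 6, but its 22 h change rests on 1 ratio and no 22 h array measured it well above background, so no size is given. Without pair C at 3 h the KLF6 difference was called, at -1.43 (adjusted p = 0.0497). The share of all probes called in either direction rose there from 0.0285% to 0.9%.

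**Figure D4:**
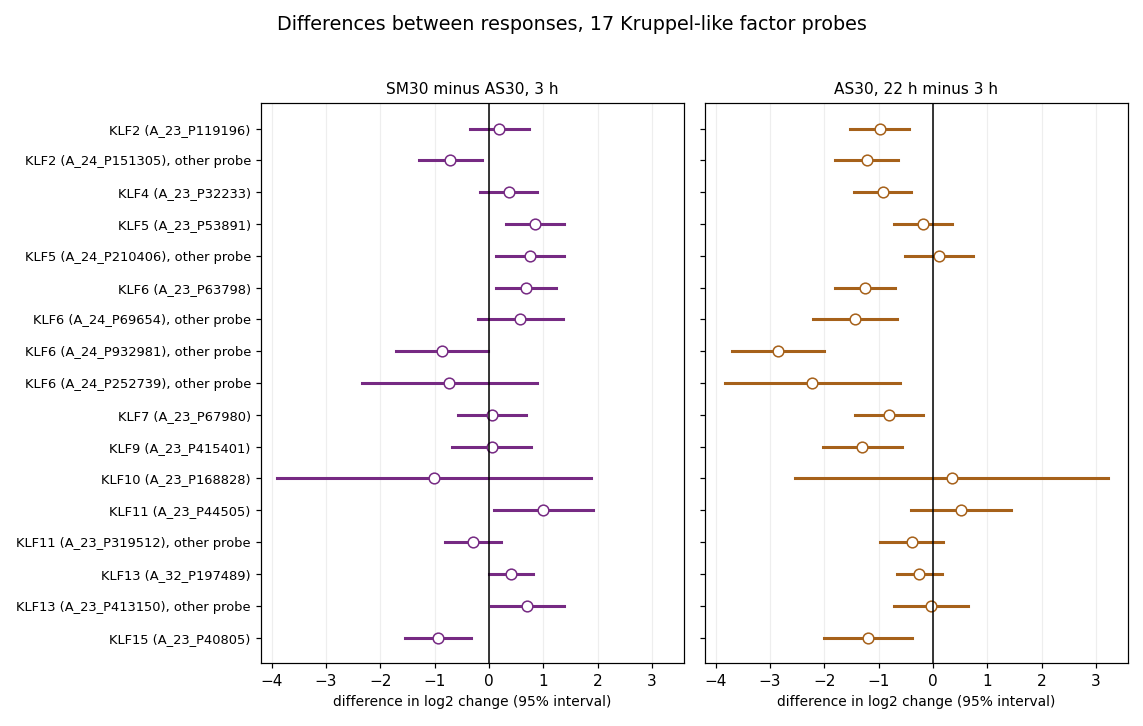
Difference between 2 responses for each kept KLF probe (rows) with its 95% interval, on the log2 scale; left, SM30 minus AS30 at 3 h, and right, AS30 at 22 h minus 3 h. No circle is filled, since no probe had an adjusted p under 0.05, and on the right 14 of the 17 probes lie below 0.

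The controls themselves were compared in a fit of all 18 arrays. Between 22 h and 3 h of recovery no member was called on its brightest probe, with 0.504% of all probes called higher and 0.795% lower at 22 h (1.3% in either direction). KLF5 (-0.63, adjusted p = 0.20), KLF13 (-0.46, adjusted p = 0.17) and KLF9 (0.61, adjusted p = 0.32) had an unadjusted p under 0.05. So did KLF15, from 1 control array at 22 h and 2 at 3 h, none of them well above background. Without replicate C of the 3 h controls, KLF5 (-0.95, adjusted p = 0.011) and KLF13 (-0.59, adjusted p = 0.046) were called lower at 22 h. The share of all probes called in either direction rose there to 5.54%. This comparison uses the same 3 h controls as the AS30 response.

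Between the 2 control sets at 3 h, which were separate samples on separate slides, no member was called on its brightest probe. Over all probes, 15.6% were called higher and 11.1% lower in the SM30 controls (26.8% in either direction). No brightest probe had an unadjusted p under 0.05. Without replicate C of the AS30 controls, KLF5 was called lower in the SM30 controls (-0.57, adjusted p = 0.033), where 20.6% of all probes were called in either direction. Among the other probes 4 were called. A_24_P932981 of KLF6 was higher in the SM30 controls (1.80, adjusted p = 0.00097), as was the dim KLF11 probe (adjusted p = 0.013), which no AS30 control array measured well above background, while the second probes of KLF2 (-0.90, adjusted p = 0.0037) and KLF13 (-0.65, adjusted p = 0.027) were lower.

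The rest of the KLF and SP family passed the filter less completely. Of 17 listed relatives, 14 had a probe and 8 kept one. Counts for this list and those that follow stand beside the shares of all probes. These were 4.35% called higher and 3.13% lower after SM30, and 1.5% and 1.01% after AS30 at 3 h. At 22 h they were 2.54% and 1.04%. After SM30 KLF3, a repressor that recruits CtBP, rose 2.48-fold (adjusted p = 0.021), and KLF12, a related repressor, rose 1.52-fold (adjusted p = 0.032). The remaining 6 were not called. KLF12 rose also after AS30 at 3 h (1.67-fold, adjusted p = 0.034) and the other 7 were not called, and at 22 h none of the 8 was. The median log2 change of the 8 was -0.01 after SM30 and 0.48 after AS30 at 3 h.

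Of 18 measured regulators and cofactors of KLFs, 2 rose after SM30. These were MEF2A, a factor that activates the KLF2 gene (1.67-fold, adjusted p = 0.029), and SMURF1, a ubiquitin ligase reported to target KLF2 (1.71-fold, adjusted p = 0.014). SMURF1 rose also after AS30 at 3 h (1.61-fold, adjusted p = 0.042). None was called at 22 h, and none fell in any of the treated comparisons. The median log2 changes were 0.09, 0.15 and 0.06 after SM30, AS30 at 3 h and AS30 at 22 h.

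Among 12 measured genes reported as KLF targets, 2 rose after SM30. CDKN1A, the cell cycle inhibitor p21 and a reported target of KLF4 and KLF6, rose 2.54-fold (adjusted p = 0.0010). TGFBR1, a receptor of TGF-beta, rose 3.90-fold (adjusted p = 0.011). CDKN1A rose also after AS30 at 3 h (1.69-fold, adjusted p = 0.018). In that comparison CCND1, which encodes cyclin D1, fell by 0.62 on the log2 scale (adjusted p = 0.045), and THBD, the anticoagulant thrombomodulin that KLF2 induces in endothelium, fell by 1.12 (adjusted p = 0.011). No target was called at 22 h, and the median log2 change over the 12 was -0.07 after SM30, -0.20 after AS30 at 3 h and -0.18 at 22 h.

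Of 8 measured genes around the glucocorticoid receptor, through which KLF9 is induced, TSC22D3 (2.12-fold, adjusted p = 0.047) and SGK1 (1.77-fold, adjusted p = 0.039) rose after SM30 and ERRFI1 after AS30 at 3 h (1.57-fold, adjusted p = 0.049). None was called at 22 h, and none fell. The median log2 change of the 8 was -0.29 after SM30 and 0.14 after AS30 at 3 h.

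The summed level of the 5 leukocyte markers was higher in treated than in control arrays in all 3 comparisons. Signals were added on the linear scale, so CD68 weighs most in the sum. It read 8.78 to 11.62, against at most 8.24 for any other of the 5. On the log2 scale the sum ranged from 9.68 to 9.76 in the SM30 controls and from 10.24 to 10.29 after SM30, from 9.94 to 10.37 and from 10.53 to 10.80 at 3 h of AS30, and from 9.99 to 10.46 and from 10.71 to 11.85 at 22 h. PTPRC stayed between 2.67 and 3.59. Of the 3 leukocyte markers that kept a probe, CD68, a lysosomal protein that other cells also make, had log2 changes of 0.97, 0.97 and 1.67 after SM30, AS30 at 3 h and AS30 at 22 h, and it was called at 22 h (3.18-fold, adjusted p = 0.020). CD14 and CD3E had values of -0.24 and -0.56 after SM30, 0.62 and 0.62 after AS30 at 3 h and -0.02 and -0.25 at 22 h, none called. Of the 5 fibroblast markers, COL1A1 and THY1 were well above background on all 18 arrays, COL1A2 on 7, DCN on 1 and PDGFRB on none. Their summed level ranged from 11.10 to 11.24 in the SM30 controls and from 10.61 to 10.97 after SM30, with no overlap, from 11.87 to 13.52 and from 13.15 to 13.40 at 3 h of AS30, and from 12.34 to 13.40 and from 12.39 to 12.66 at 22 h. Neither COL1A1 nor THY1 was called in a treated comparison. Of 5 endothelial markers, VWF was well above background on 11 arrays, KDR on 2, CDH5 on 1 and PECAM1 and TEK on none. The part of the leukocyte, fibroblast and endothelial markers in the KLF values was not tested.

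The genes whose levels followed a member most closely over the 18 arrays were listed for the 8 members called, among 17193 genes with no missing value. The arrays share the same groups and slides, so these correlations describe the data only. For KLF6 they were MXD1 (Pearson r = 0.96), CREM (0.95) and LHFPL2 (0.95). For KLF13 they were HECA, EEIG1 and GARRE1 (all 0.97). For KLF5 they were GNA13 (0.96), CDC42EP2 (0.96) and SLC7A11 (0.95). For KLF2 they were PPP1R15A (0.91), SESN2 (0.91) and PPP2R5B (0.90), for KLF4 GPAT3 (0.91), PTHLH (0.91) and YAP1 (0.89), and for KLF7 RRAS2 (0.93), CEBPG (0.92) and MAP4K4 (0.91). For KLF9 the named genes were YPEL2 (0.91) and NAA80 (0.90), behind an unnamed transcript cluster (THC2526402, 0.91), and for KLF11 WHDC1L1 (0.89) and WIPI2 (0.88), with the probe A_32_P214860 (0.88) between them.

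Among the members themselves, the log2 ratios of KLF2 and KLF4 were most alike over the 9 pairs (Pearson r = 0.97). KLF4 and KLF9 (0.94) and KLF2 and KLF6 (0.94) came next. KLF10 ran against KLF13 (-0.47) and KLF7 (-0.41), and its value in SM30 replicate B enters each of these. The ratios of 3 conditions enter every value, so the 9 points are not independent.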

How the data were processed

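Total RNA of A549 cells was labelled with Cy3 and hybridised to one-colour Agilent whole-genome arrays (45015 spots). The deposited scanner files hold, per the file headers, signal intensity per spot after Agilent's background correction, with probe positions on hg18. The deposited table of the authors holds their normalized intensity per probe (quantile method, unflagged replicate spots averaged) and served as an alternative.

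Processed signals of non-control spots were taken to log2 and quantile-normalized over the 18 arrays. Spots not positive and significant and outlier spots were set missing, replicate spots of a probe were averaged, and probes missing on over 33% of arrays were removed, which left 28665 probes of 21233 genes. The 9 same-letter log2 ratios were fitted as 3 conditions with limma 3.58.1 in R 4.3.3 (moderated test, 6 residual degrees of freedom), and controls were compared in a fit of 6 groups (12 degrees). Adjustment was by Benjamini-Hochberg over all probes tested. The labels give no culture, animal or day for a letter beyond stating that replicates are biological. The number of arrays limits the precision. The fits were tested on simulated data.

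All members and all their probes are given. Genes of 4 related lists are named where a test called them in a treated comparison, and the 3 genes with the highest correlation are named for each member called. The members and lists were chosen with earlier results of these data known. The 0.02 mg/mL dose is from the study's methods. Gene symbols of other probes were updated through RefSeq accessions (18772 of the kept probes), and promoter windows are RefSeq's, on GRCh38.p14. KLF10 had no window and its start is not analysed here. Where a probe is exonic was not analysed here.

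Alternatives were 75th percentile scaling, normexp background correction (offset 50), all spots kept, probes measured on all 18 arrays, no filter, outlier spots kept, the authors' table, the letter as a block or not, a slide block (fixed, or random), the probe with the smallest adjusted p, ratios over the mean of 3 controls, and leaving out each pair or array.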

Additional observations from a re-analysis of the deposited data

How the results depend on the processing

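The 8 members called after SM30 and the 3 after AS30 at 3 h had the same direction under every alternative run. The SM30 count was 6 with all spots kept (3.15% of all probes called), 1 with the slide as a fixed block and 1 to 8 when a pair was left out. The AS30 count at 3 h was 4 with 75th percentile scaling (2.4% of all probes called) and 4 with the probe of smallest adjusted p. It was 1 with all spots kept (0.668%), 0 with the slide as a fixed block (0.785%) and 5 with it as a random block (13.8%). It was 6 with ratios over the mean of the controls (which leaves out the controls' own spread) and 1 to 5 when a pair was left out. At 22 h it was 1 with the probe of smallest adjusted p and 1 with mean-control ratios. With those ratios 2 members were called between particles and 5 between times, where 19% and 21% of all probes were (34.5% for AS30 at 3 h and 31.1% at 22 h), and 0 to 1 between times when a pair was left out. Control comparisons gave 0 to 2 members over time and 0 to 1 between sets with an array left out, and 4 between sets with the probe of smallest adjusted p. A slide-blocked value between the control sets could not be fitted, since they share no slide. The cause of these shifts was not tested.

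Same-letter arrays deviated together weakly (correlations from -0.09 to 0.48), with all 3 above 0.1 for AS30 at 22 h but not for SM30 or AS30 at 3 h, so the data do not pair the letters in the study as a whole. The ratios by letter follow the study's methods. Without the replicate block, 7 members were called after SM30 (KLF7 missed the threshold, adjusted p = 0.053) and 3 after AS30 at 3 h. With a replicate block the control comparisons called 0.

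Signs changed for values that were not called. With 75th percentile scaling KLF5 after AS30 at 3 h was 0.028 and KLF7 between control sets -0.0051. With normexp correction KLF7 between particles was -0.013. With all spots kept KLF15 was 0.32 after AS30 at 22 h and 0.16 between control sets. With the slide fixed, KLF15 after SM30 was 0.041, KLF5 after AS30 0.27 at 3 h and 0.11 at 22 h, KLF6 -0.16 and KLF7 -0.17 at 22 h, KLF10 between times -0.44 and KLF7 between control times -0.029. With the probe of smallest adjusted p, KLF6 was 1.80 between control sets and -0.82 at 22 h, KLF11 0.90 between control sets and -0.39 between times, KLF2 -0.71 between particles and KLF5 0.035 after AS30 at 3 h; the control-set values of KLF6 and KLF11 were called.

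With a pair or array left out, values between particles ran from -0.20 to 0.21 for KLF9, -1.96 to 0.76 for KLF10 and -0.10 to 0.35 for KLF7. KLF15 after SM30 ran from -0.15 to 0.058, KLF5 after AS30 at 3 h from -0.27 to 0.17 and KLF5 between times from -0.38 to 0.064. At 22 h KLF9 ran from -0.10 to 0.42, KLF2 from -0.35 to 0.094 and KLF7 from -0.13 to 0.16. Between control times KLF6 ran from -0.061 to 0.37. Between control sets KLF15 ran from -0.52 to 0.38, KLF7 from -0.095 to 0.34, KLF13 from -0.23 to 0.039 and KLF11 from -0.40 to 0.14. KLF15, the dim KLF11 probe and the KLF6 probes A_24_P932981 and A_24_P252739 are limited by their signal over background.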

Other observations

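Within single slides, treated and control arrays of SM30 at 3 h could be compared for replicate A against the 3 controls. There KLF6 was 2.19 higher on the log2 scale, KLF9 1.50, KLF11 1.35, KLF2 0.96, KLF13 0.88, KLF5 0.85, KLF4 0.83 and KLF7 0.82, each 1 treated array with no test. On the slide that held the AS30 arrays at 22 h with control replicate C, KLF6 differed by -0.16, KLF9 by 0.13, KLF2 by -0.39, KLF4 by -0.66 and the brighter KLF11 probe by 0.51, with 3 treated arrays against 1 control array and no test.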
